A study of Mus musculus with 6 samples.

Results

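The 10 genes described here encode inflammasome components and NOD-like receptors: the sensors Nlrp3, Nlrc4, Nlrp1b and Aim2, the NOD receptors Nod1 and Nod2, the adaptor Pycard, the inflammatory caspases Casp1 and Casp4, and the pore-forming protein gene Gsdmd. They were taken by gene symbol from a table of 15035 rows, and all 10 had a row. The libraries came from mouse leukemia cells of BALB/c background, bone marrow cells in which mutant CSF3R, a growth factor receptor, and mutant CEBPA, a myeloid transcription factor, were expressed from retrovirus. Both groups carried these transgenes and were cultured for 48 h. The DMSO group received the solvent alone. The other group received GSK-LSD1 at 4 nM, a small molecule that blocks LSD1, an enzyme that removes methyl marks from histones. Each group had 3 RNA-seq libraries. The labels do not say whether these were separate cultures or animals, so the p-values measure the spread between libraries, which may be technical. Nor do the labels say which promoter drove the transgenes.

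Inflammasomes are protein platforms of innate immune cells. A sensor that detects a microbial or damage signal recruits the adaptor ASC, the product of Pycard, which brings in caspase-1. Caspase-1 matures interleukin 1 beta and interleukin 18 and cuts gasdermin D, whose released part forms pores in the cell membrane and can kill the cell. Mouse caspase-11, the product of Casp4, is activated by bacterial lipopolysaccharide in the cytosol and also cuts gasdermin D. NOD1 and NOD2 instead detect fragments of bacterial cell wall and signal through the kinase RIPK2 to NF-kB.

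With GSK-LSD1 the sensor gene Nlrp3 rose 7.55-fold, Nod2 2.68-fold, Nod1 2.1-fold, Casp1 1.73-fold and Aim2 1.59-fold in mean value. Pycard, Casp4, Gsdmd and Nlrp1b did not pass the test. Nlrc4 was too low to be tested. Values are read counts scaled per library, and a call means an adjusted p under 0.05 from limma (log2 of the value plus 1, Benjamini-Hochberg over 11588 genes). By this rule 5 of the 9 tested members were higher and 0 were lower. Over all tested genes 41.1% were called, with 20.6% higher and 20.5% lower. Groups whose library ranges did not overlap, with GSK-LSD1 higher, were seen for the same 5 of the 9 tested members, against 24.7% of all tested genes. Nlrc4 also had such groups, but it was not tested and so lies outside that share. No member had non-overlapping groups with GSK-LSD1 lower, against 24.8% of all tested genes. The median log2 fold change was 0.67 for the tested members and -0.01 for all tested genes. Nlrp3 and Nod2 passed the filter on low values through the GSK-LSD1 libraries alone, so they could enter the test only by being higher there, and the count and median are descriptions.

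Promoter windows from RefSeq (GRCm38.p6, 250 bases before to 50 after a gene start) were at hand for 9 of the 10 genes, 13 windows in all, since some genes have more than 1 start. Of these, 4 are shown: those of Nlrp3 and Aim2, sensor genes that rose, and those of the neighbours Casp1, which rose, and Casp4, which did not pass. Capitals mark matches, on either strand, to letters used by factors of myeloid or inflammatory genes.
Nlrp3, chr11:59541319-59541618, plus strand: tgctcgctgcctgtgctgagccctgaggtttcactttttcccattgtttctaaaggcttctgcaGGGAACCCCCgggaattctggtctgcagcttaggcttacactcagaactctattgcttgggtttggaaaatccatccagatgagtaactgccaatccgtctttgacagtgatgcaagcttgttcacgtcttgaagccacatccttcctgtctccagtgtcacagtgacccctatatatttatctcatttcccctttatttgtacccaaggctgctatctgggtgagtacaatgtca
Aim2, chr1:173420354-173420653, plus strand: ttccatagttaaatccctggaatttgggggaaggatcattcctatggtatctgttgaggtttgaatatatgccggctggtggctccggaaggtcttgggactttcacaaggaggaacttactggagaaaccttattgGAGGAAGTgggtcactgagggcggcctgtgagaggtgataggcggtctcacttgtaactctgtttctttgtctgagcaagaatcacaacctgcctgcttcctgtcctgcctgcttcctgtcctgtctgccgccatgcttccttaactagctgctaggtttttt
Casp1, chr9:5298267-5298566, plus strand: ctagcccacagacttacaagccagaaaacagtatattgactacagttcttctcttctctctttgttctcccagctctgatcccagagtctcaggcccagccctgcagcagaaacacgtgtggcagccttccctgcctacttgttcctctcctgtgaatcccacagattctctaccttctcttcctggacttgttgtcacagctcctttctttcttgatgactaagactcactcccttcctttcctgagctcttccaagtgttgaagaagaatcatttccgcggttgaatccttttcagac
Casp4, chr9:5308599-5308898, plus strand: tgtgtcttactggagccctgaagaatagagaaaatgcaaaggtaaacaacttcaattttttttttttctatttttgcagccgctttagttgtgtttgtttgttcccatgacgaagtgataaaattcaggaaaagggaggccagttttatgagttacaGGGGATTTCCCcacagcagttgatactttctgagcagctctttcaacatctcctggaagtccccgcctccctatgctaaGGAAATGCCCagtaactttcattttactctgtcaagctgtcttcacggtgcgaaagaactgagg

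The capitals in the Nlrp3 and Casp4 windows match an NF-kB consensus pattern of 10 letters. In this window of Nlrp3 there was 1 match, while the window of its other start, chr11:59542436-59542735, held none of the patterns searched. In Casp4 there were 3, of which the first 2 overlap and appear as a single run, and the overlapping window of another Casp4 start holds the same 3. This pattern was found in 4.79% of all 32851 windows. The capitals in the Aim2 window match the PU.1 letters GAGGAAGT, found in 3.2% of all windows. That window lies inside the gene span given below, which begins at 173350879, and not at its start. The Casp1 window held no match to any pattern searched, and neither did the window of Nod2. The other patterns were TTGCNNAA for C/EBP factors (10.8% of all windows), AAATCAC for GFI1 (3.2%) and a pattern for the interferon response element (3.44%). The C/EBP letters stood in a window of Nlrc4, Nlrp1b, Nod1 and Pycard, and the PU.1 letters also in a window of Nlrp1b and Pycard. No member window held the GFI1 or interferon letters. These are matches of letters in a C57BL/6J reference, whereas the cells were BALB/c, and none shows that a factor was bound.

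Among the sensors, Nlrp3 (chromosome 11, 59541568 to 59566956, GRCm38) encodes the receptor that responds to potassium loss and membrane damage. Its values were 8.79, 6.94 and 7.96 in DMSO replicates 1, 2 and 3 and 54.1, 70.4 and 54.5 in GSK-LSD1 replicates 1, 2 and 3. The highest DMSO library lay far below the lowest GSK-LSD1 library. The mean went from 7.9 ± 0.928 to 59.7 ± 9.3 (SD, n = 3 each), and the log2 fold change was 2.76 with a standard error of 0.253 (limma adjusted p = 3.03e-11). Nlrp3 passed the filter on low values through the GSK-LSD1 libraries alone, so it could enter the test only by being higher there. Without that filter its limma adjusted p was 8.24e-09.

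Aim2 (chromosome 1, 173350879 to 173466040) encodes a sensor of double-stranded DNA in the cytosol. Per length it was the most abundant of the 4 inflammasome sensors. It had 188, 171 and 152 in the DMSO libraries and 249, 287 and 278 in the GSK-LSD1 libraries. The groups did not overlap. Its log2 fold change was 0.67 with a standard error of 0.0971 (limma adjusted p = 7.32e-07).

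Nlrc4 (chromosome 17, 74425438 to 74459142) encodes the platform that joins NAIP proteins bound to bacterial flagellin or secretion system parts. It was near the limit of detection, at 2.93, 0 and 0.995 with DMSO and 5.1, 4.14 and 5.84 with GSK-LSD1. Here a value of about 1 was taken to stand for 1 read. A count of 0 in DMSO replicate 2 allows a value of up to 2.97. Summed over libraries these were 4 reads against 15, a ratio of 3.83 with an exact 95% interval of 1.22 to 15.9 that covers counting error only. Its groups did not overlap, but it stayed out of the test. Nlrp1b (chromosome 11, 71153102 to 71230733), a sensor cut by anthrax lethal factor, had 8.79, 7.93 and 11.9 with DMSO and 9.18, 20.7 and 11.7 with GSK-LSD1. GSK-LSD1 replicate 2 stood above the DMSO range, and the other libraries overlapped. The log2 fold change of 0.44 had a 95% interval of -0.29 to 1.16 (limma adjusted p = 0.347), so the interval reaches past a log2 fold change of 1. Reads of Nlrp1b can be shared with its close relative Nlrp1a.

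Both NOD receptor genes rose from low values. Nod1 (chromosome 6, 54923949 to 54972612) was 23.4, 17.8 and 20.9 with DMSO and 37.7, 50.7 and 41.9 with GSK-LSD1. The lowest treated library was above the highest DMSO library. The log2 fold change was 1.03 with a standard error of 0.223 (limma adjusted p = 0.000296). Nod2 (chromosome 8, 88647315 to 88688474) was 5.86, 4.95 and 9.95 with DMSO and 21.4, 17.6 and 16.5 with GSK-LSD1, again without overlap. Its log2 fold change was 1.34 with a standard error of 0.349 (limma adjusted p = 0.00207). The interval of 0.64 to 2.05 overlapped that of Nod1, 0.58 to 1.48. Nod2, like Nlrp3, passed the filter on low values through the GSK-LSD1 libraries alone. Without that filter its limma adjusted p was 0.00295.

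**Figure D1:**
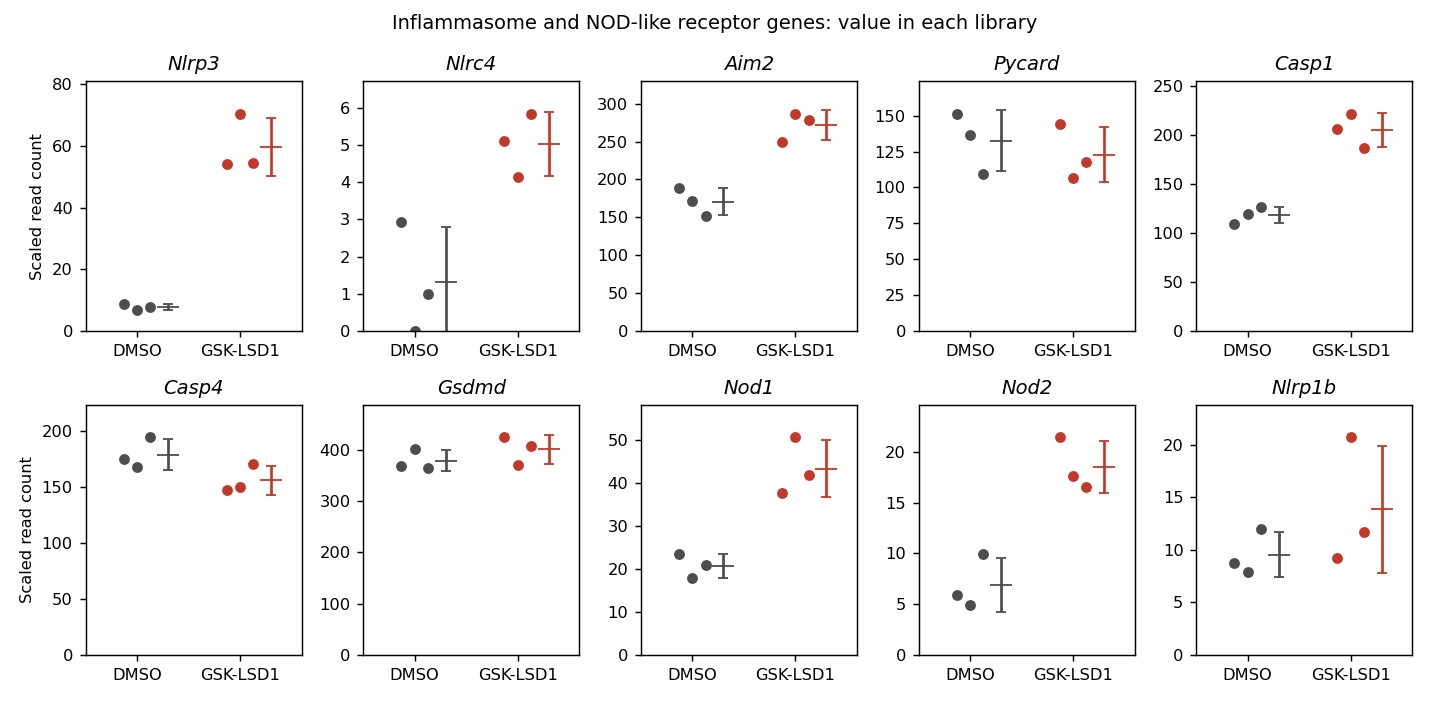
Scaled read count (vertical axes, from 0, a separate scale for each gene) of the 10 genes in the 3 DMSO (grey) and 3 GSK-LSD1 (red) libraries. Points are libraries and the bar beside them is the mean with its SD, cut at 0 for Nlrc4. Nlrp3 is at 6.94 to 8.79 with DMSO and 54.1 to 70.4 with GSK-LSD1, while the libraries of Pycard, Casp4, Gsdmd and Nlrp1b overlap between the groups.

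The adaptor gene did not pass the test. Pycard (chromosome 7, 127989708 to 127993867) was 151, 137 and 109 with DMSO and 144, 107 and 118 with GSK-LSD1. The libraries of the groups were interleaved. The log2 fold change was -0.11 with a 95% interval of -0.37 to 0.15 (limma adjusted p = 0.533), which leaves out a rise of the size seen for Casp1 or Aim2. An exon of Pycard overlaps a gene model on the other strand (Gm45205), so reads of the pair may be mixed if strand was not used in counting.

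The inflammatory caspase genes lie side by side on chromosome 9, Casp1 at 5298517 to 5307265 and Casp4 at 5308828 to 5336783, with 1.56 kb between them. Casp1 was 109, 119 and 126 with DMSO and 206, 222 and 187 with GSK-LSD1, without overlap. Its log2 fold change was 0.79 with a standard error of 0.108 (limma adjusted p = 2.59e-07). Casp4 was 175, 167 and 194 with DMSO and 147, 150.1 and 170.3 with GSK-LSD1, so that GSK-LSD1 replicate 3 lay within the DMSO range. Its log2 fold change was -0.20 with a 95% interval of -0.41 to 0.02 (limma adjusted p = 0.132). With quantile scaling Casp4 passed as lower, at -0.28 (limma adjusted p = 0.0317).

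The values of the pair changed order. The ratio of Casp1 to Casp4 was 0.626, 0.71 and 0.651 in the DMSO libraries and 1.4, 1.48 and 1.1 in the GSK-LSD1 libraries. Every DMSO library had more Casp4 than Casp1 reads, and every GSK-LSD1 library more Casp1 than Casp4. The mean ratio went from 0.662 ± 0.0433 to 1.33 ± 0.201 (SD, n = 3 each). A two-sided exact permutation test of the log2 ratio gave p = 0.1, the smallest that 3 against 3 libraries allow. The annotated transcripts are of like length, 1497 and 1435 bases.

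Gsdmd (chromosome 15, 75862327 to 75867408), which encodes the pore-forming target of both caspases, was the most abundant of the 10 genes per length. It had 369, 402 and 364 with DMSO and 424, 371 and 408 with GSK-LSD1, and the groups overlapped. The log2 fold change was 0.08 with a 95% interval of -0.07 to 0.23 (limma adjusted p = 0.405). The interval ends at a 1.18-fold rise.

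**Figure D2:**
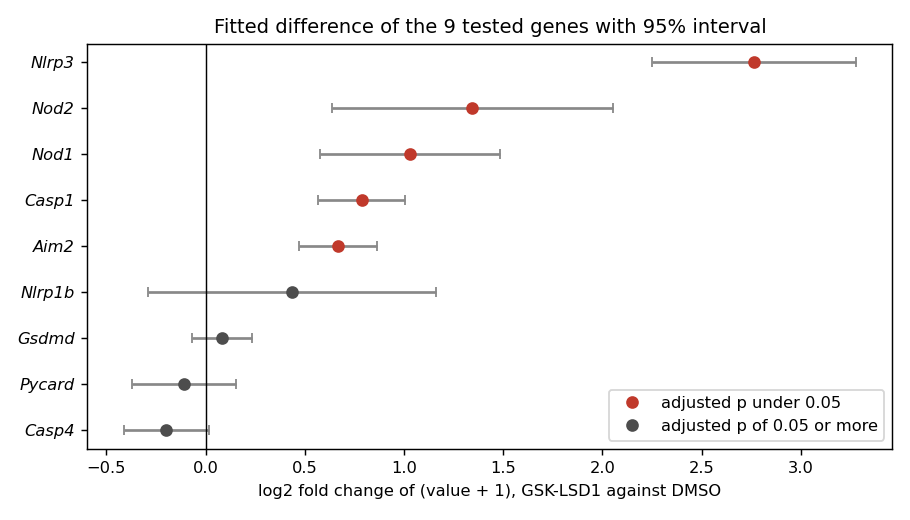
Fitted log2 fold change of the value plus 1, GSK-LSD1 against DMSO (horizontal axis), of the 9 tested genes, with bars for the 95% interval from limma. Nlrp3 stands at 2.76, the other 4 called genes (red) between 0.67 and 1.34, and the intervals of Nlrp1b, Gsdmd, Pycard and Casp4 (grey) include 0.

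Levels were compared between genes per kilobase of the longest principal transcript in GENCODE M21. With DMSO, Gsdmd was highest at 211 ± 11.5, followed by Casp4 at 125 ± 9.59, Casp1 at 79 ± 5.71, Aim2 at 60.1 ± 6.37 and Pycard at 34.9 ± 5.59 (scaled reads per kilobase, SD, n = 3). None of these 5 overlapped its neighbour in the order over the 3 libraries. Nod1 stood well below, at 4.8 ± 0.65 per kilobase. Nlrp1b (2.31 ± 0.512), Nlrp3 (1.96 ± 0.231) and Nod2 (1.49 ± 0.573) overlapped each other, and Nlrc4 was lowest at 0.277 ± 0.315. With GSK-LSD1, Nlrp3 was at 14.8 ± 2.31 per kilobase and stood above Nod1, at 10.1 ± 1.54, with no overlap between their libraries. Casp1 (137 ± 11.6) likewise stood above Casp4 (109 ± 8.85). The effector genes thus held the upper part of the order and the receptor genes of the NLR family the lower part in both groups. The Pycard level rests on a 3800-base transcript, longer than the 2495 bases that RefSeq gives for the whole gene, so its place is uncertain.

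Of 20 other NOD-like receptor and related sensor genes, 15 had a row and 11 were tested. Of those 11, 6 rose, 0 fell and 5 did not pass, with a median log2 fold change of 0.56. Over all tested genes 20.6% were higher and 20.5% lower. Nlrp6, a receptor studied in gut epithelium, rose from 17.4 ± 6.75 to 62.3 ± 7.03, with libraries at 24.4, 16.8 and 10.9 against 59.2, 70.4 and 57.4. Nlrp12, a dampener of NF-kB signalling, rose from 14.8 ± 5.25 to 37 ± 6.93, and Mefv, which encodes the inflammasome sensor pyrin, from 29 ± 3.45 to 63.9 ± 8.29.

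The NAIP genes encode the ligand-binding partners of NLRC4. Naip5, for flagellin, rose from 18.8 ± 3.38 to 44.2 ± 7.32. Naip2, for the type III secretion rod (named after its values were seen), rose from 312 ± 10.02 to 462 ± 14.9 while the platform gene Nlrc4 had at most 5.84. Naip6 had 9.86 ± 3.37 and 15.5 ± 3.56 and did not pass, and Naip1 had at most 2.04. These genes are close copies of each other, and reads can be split among them. Nlrx1, a mitochondrial family member whose exons overlap a model on the other strand, was also called, at 0.53 on the log2 scale, and was likewise chosen after its values were seen. The cytosolic nucleic acid sensor genes Ddx58 (0.17) and Mb21d1 (-0.12), and the family members Nlrc3 (0.45) and Nlrc5 (-0.13), did not pass on the log2 scale. Ciita, Nlrp10 and Nlrp1a had at most 3.06 in any library.

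Genes that trigger or restrain inflammasomes were called in both directions. Of 32 listed, 30 had a row and 28 were tested, of which 12 rose, 4 fell and 12 did not pass. The shares over all tested genes were 20.6% higher and 20.5% lower. The median log2 fold change of the list was 0.11. The largest rises were in Zbp1, a nucleic acid sensor that can start cell death (19.4 ± 3.19 to 43.8 ± 10.6), and Gbp2, a guanylate-binding protein that coats bacteria (48.1 ± 6.43 to 90.9 ± 12.3). Pstpip1, which encodes a pyrin-binding protein, rose from 125 ± 19.3 to 205 ± 30.2.

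P2rx7 and Nek7, whose products act upstream of NLRP3, were among the 12 genes of this list that rose. They do not stand for the whole list, in which Kcnk6 and Panx1 fell. Trim30a, also called, rose by 0.36 on the log2 scale, more than Nek7. P2rx7, the ATP-gated channel whose opening lets potassium out, rose from 416 ± 26.5 to 548 ± 30.3, with libraries at 397, 403 and 446 against 583, 533 and 528. Nek7, which encodes a kinase that binds NLRP3, rose 1.21-fold, with 666, 643 and 737 against 860.04, 845 and 776, and was named after its values were seen. The groups of each did not overlap, and the log2 fold changes were 0.40 for P2rx7 and 0.28 for Nek7 (limma adjusted p = 1.64e-05 and 0.000402). The genes that fell were Gm12250, which encodes the GTPase IRGB10 (70.4 ± 2.78 to 43.7 ± 6.95), the potassium channel gene Kcnk6 (177 ± 23.9 to 123 ± 14.2), Panx1 (-0.20 on the log2 scale) and Fadd (-0.20). This count of 4 was 2 with scaling to equal library totals, and also 2 without DMSO replicate 2, GSK-LSD1 replicate 1 or GSK-LSD1 replicate 3. Nek7 and Fadd overlap gene models on the other strand. Dpp8 and Dpp9, whose products hold NLRP1 in check, and Serpinb9 did not pass.

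Of the genes listed for NOD1 and NOD2 signalling, 10 of 29 tested were higher, 1 was lower and 18 did not pass. This compares with 20.6% higher and 20.5% lower over all tested genes. The median log2 fold change of the list was 0.03. Ripk2, the kinase gene next to the receptors in the pathway, was 113, 141 and 106 with DMSO and 144, 118 and 109 with GSK-LSD1. The libraries overlapped, and its log2 fold change was 0.05 (limma adjusted p = 0.806). Slc15a3, which encodes a lysosomal transporter that can pass the NOD2 ligand muramyl dipeptide to the cytosol, went from 2.93, 6.94 and 0.995 to 109, 119 and 92.5. It passed the filter through the GSK-LSD1 libraries alone, and its exons overlap Tmem132a on the other strand. Its related transporter gene Slc15a4 did not pass, with 207 ± 14 and 196 ± 7.17. Nagk, which encodes a kinase that phosphorylates muramyl dipeptide, rose from 115 ± 10.01 to 150.4 ± 6.36. Erbb2ip and Cyld rose 1.22-fold each, and the ubiquitin ligase subunit gene Rbck1 fell by 0.17 on the log2 scale.

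Il1b and Il18, the cytokine genes whose products caspase-1 matures, and the related Il1a had few reads in either group. Il1b was 5.86, 1.98 and 1.99 with DMSO and 3.06, 3.11 and 3.89 with GSK-LSD1, which is 2 to 6 reads a library. Il18 had 3.91, 1.98 and 0 with DMSO and 6.12, 8.28 and 2.92 with GSK-LSD1, and Il1a had at most 4.95. None of the 3 was tested. Il1f9, which encodes interleukin 36 gamma of the same family, rose from 6.84, 4.95 and 3.98 to 111, 102 and 94.4, and passed the filter through the treated libraries alone.

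Of 20 genes listed as substrates and death effectors, 14 were tested, 6 rose, 1 fell and 7 did not pass. The shares over all tested genes were 20.6% higher and 20.5% lower. The median log2 fold change of the list was 0.00075. Casp6, an effector caspase gene, rose from 257 ± 28.7 to 801 ± 34.9, with 230, 254 and 287 against 822, 821 and 761. Dfna5, which encodes gasdermin E, another pore former, rose from 47.4 ± 1.53 to 75.5 ± 11.05. Ninj1, whose product ruptures the membrane of dying cells, rose from 639 ± 75.2 to 800 ± 18.8. Casp8 did not pass, with 990.4 ± 115 and 939 ± 23.1.

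**Figure D3:**
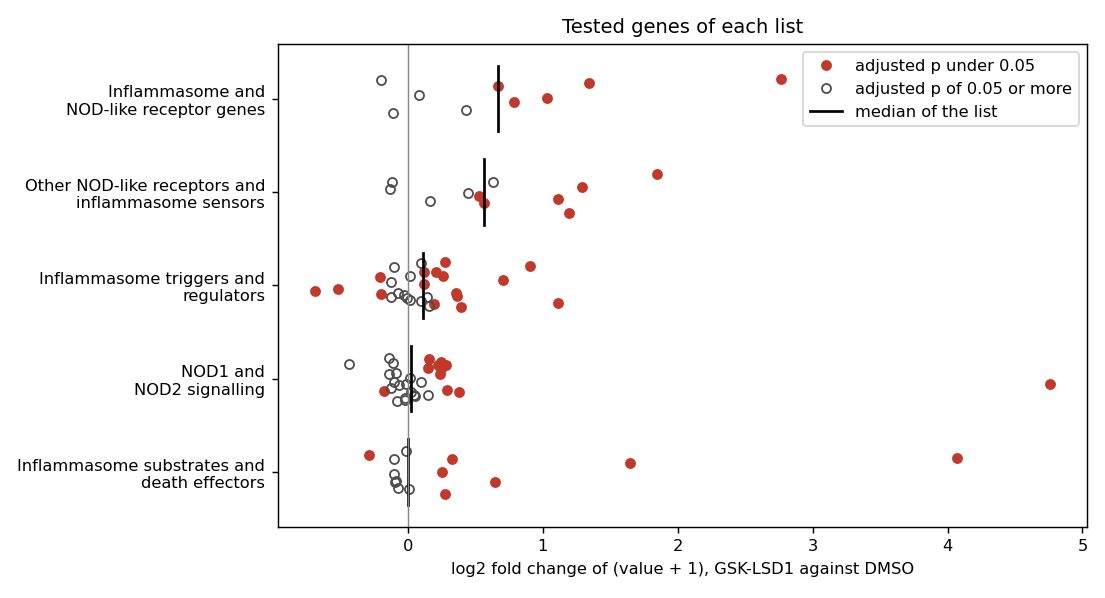
Log2 fold change of the value plus 1, GSK-LSD1 against DMSO (horizontal axis), of each tested gene in the 5 gene lists (vertical axis, points spread within a row for legibility). Filled red points are called, open points are not, and the black bar is the list median: 0.67 for the 9 tested members, 0.56 for other sensors, 0.11 for triggers and regulators, 0.03 for NOD signalling and 0.00075 for substrates and effectors.

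The genes next to the members on their chromosomes were read from the same fit, taking the nearest tested gene on each side. Itgam, which encodes CD11b and lies 68.8 kb from Pycard, rose from 177 ± 16 to 625 ± 31.7, while Pycard did not pass. Nod2 lay between Snx20 and Cyld, 11.2 and 8.55 kb away, which were both called higher, at 0.39 and 0.28 on the log2 scale against 1.34 for Nod2. Next to Nlrp3, Mprip at 94.3 kb was called higher at 0.25, and 4933439C10Rik at 27.9 kb was not called (0.21). Mndal, 383 kb from Aim2, was called higher at 0.55, and Cadm3, whose annotated span overlaps that of Aim2, was not called (-0.08). The caspase pair stood 912 and 1592 kb from its outer neighbours Msantd4 and Dync2h1, which were called at 0.26 and 0.21. Neighbours of Nod1, Gsdmd, Nlrc4 and Nlrp1b did not pass.

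**Figure D4:**
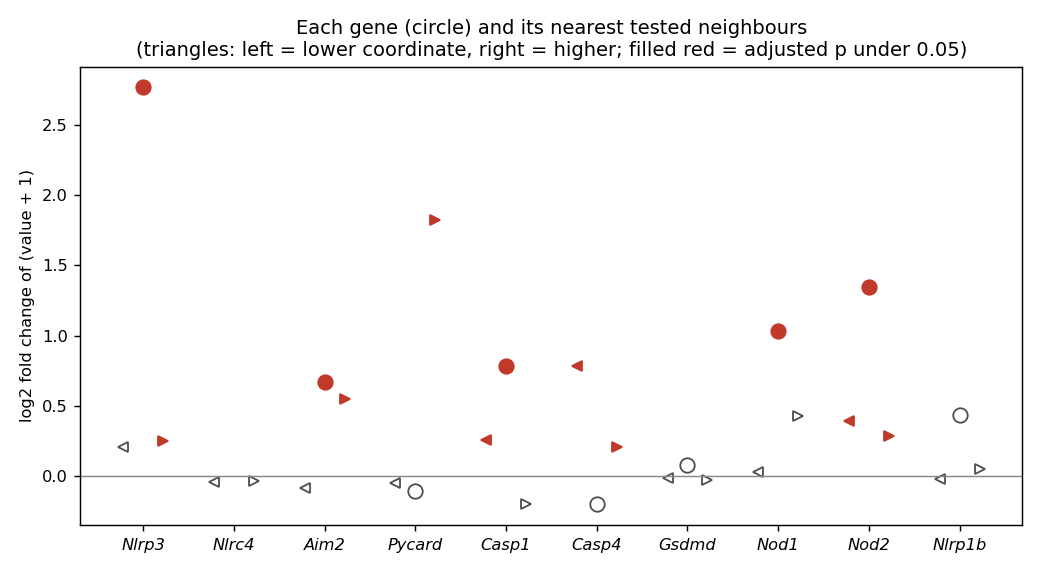
Log2 fold change of the value plus 1, GSK-LSD1 against DMSO (vertical axis), of each tested gene (circle) and its nearest tested neighbours at lower (left triangle) and higher (right triangle) coordinates. Filled red marks have a limma adjusted p under 0.05. Each called member stands above both of its neighbours, with Nlrp3 at 2.76 and Nod2 at 1.34. So do Nlrp1b and Gsdmd, which were not called. Beside Pycard the neighbour Itgam stands at 1.82.

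The 3 genes with the pattern most like that of Nlrp3 were Cd38, Clec7a and Steap4. Likeness was the root mean square difference over 6 libraries of the log2 values, each centred on its DMSO mean, and it was 0.0929, 0.118 and 0.146. Cd38, which encodes an NAD-consuming surface enzyme, was 7.56 ± 1.06 and 54.6 ± 8.84. Clec7a, the beta-glucan receptor dectin-1, was 12.5 ± 0.496 and 89.8 ± 11.4, and Steap4, a metalloreductase gene, was 21.04 ± 4.86 and 135 ± 8.62.

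Marker genes of the cells gave the setting, read against 20.6% higher and 20.5% lower over all tested genes. The libraries expressed Mpo (7149 to 9135), Cebpa (3802 to 4869) and the mast cell and basophil genes Cpa3 (13603 to 23636) and Mcpt8 (2730 to 3411). The 2 B cell markers with a row had at most 4.08. Of 2 tested T and NK cell markers Lck fell (122 ± 14 to 82.8 ± 3.43) and Klrb1c did not pass. Of 8 listed stromal markers 2 were tested and both rose, Pdgfrb (216 ± 3.87 to 292 ± 15.6) and Col1a1 (35.9 ± 4.08 to 51.5 ± 8.77). The 1 tested dendritic cell marker, H2-Ab1, did not pass. Reads of the CEBPA transgene may count towards Cebpa, so its value may not be of the cells' own gene alone. Of the 7 mast cell and basophil markers, all tested, Cpa3 and Mcpt8 rose, Fcer1a fell (5655 to 5929 with DMSO, 4325 to 4819.5 with GSK-LSD1) and 4 did not pass. Of 6 tested progenitor markers 3 rose, 1 fell and 2 (Kit and Cebpa) did not pass. Cd34 rose, with libraries between 271 and 328 for DMSO and between 1681 and 1689 for GSK-LSD1. Myb fell, with libraries between 8164 and 8876 for DMSO and between 7029 and 7513 for GSK-LSD1. Of 8 tested monocyte and macrophage markers 6 rose with GSK-LSD1, and the sum of the 12 with a row was between 806 and 839 with DMSO and between 1756 and 1909 with GSK-LSD1. Mrc1 had at most 3.06 and Ms4a7 at most 7.79 in any library. Of 10 tested neutrophil markers 6 rose, Mpo among them, and 4 fell (Elane, Ctsg, Prtn3 and Ngp). Erythroid markers were lower in 5 of 5 tested. The part of these shifts in the rise of Nlrp3, Nod1, Nod2, Casp1 and Aim2 was not tested. In bulk RNA a change in the share of cells of a type and a change in RNA per cell cannot be told apart.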

How the data were processed

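RNA-seq values of 6 libraries, 3 per group by sample title, were used. The deposited signal is 1 scaled read count per gene symbol and library: each value is a whole multiple (within 0.01) of the library's smallest value, 0.973 to 1.04. Library totals were 9877460 to 10107885, or 9572638 to 10199533 reads if the smallest value is 1 read. The authors' tools and builds, per the submitters' processing notes, include STAR, DESeq2, mm10 and GRCm38, with neither roles nor versions. The read counter is not given in the sources used here, nor is its strand setting.

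Genes with a value of at least 10 in at least 3 libraries were tested (11588; 3447 left out) with limma 3.58.1 in R 4.3.3 on log2(value + 1), two-sided, with a mean-variance trend and no replicate term. Fold changes on this scale understate changes of low genes. The fit was tested on simulated data, in which 64% of 1.25-fold, 88.7% of 1.5-fold and 98% of 2-fold changes were called. The changed genes there left out low values and all genes had 1 set dispersion. These shares therefore do not cover low members such as Nod2 or Nlrp1b. Libraries of a group differed by more than sampling noise (chi-square per degree of freedom 1.57 to 3.51). Coordinates and transcript lengths are from GENCODE M21 (GRCm38). The members and lists were chosen with earlier results of these data known. All members are named; from other lists up to 4 genes in each direction with the largest called change were eligible, and genes that did not pass are named only as examples. Not every gene the rule selects is reported here. Of the listed symbols, 1 was matched through an older name. Alternatives comprised other pseudocounts, filters and scalings, sample weights, a replicate block and leaving out each library, for which the tested genes were kept.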

Additional observations from a re-analysis of the deposited data

How the results depend on the processing

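Of 122 recomputed values of the 9 tested members, 121 kept direction and call; the other was Casp4 with quantile scaling (-0.28, called lower, which makes the members called lower 1). Leaving out any library kept 5 members higher and 0 lower. A mean value of at least 50 left 5 members and 5 other sensors in the test, of which 2 and 2 were higher. This filter took out Nlrp3, Nod1 and Nod2, the called members with the largest rises, and Nlrp1b. The called members left were Casp1 and Aim2, and the 122 values hold none for the removed genes at this filter. The count of lower NOD signalling genes with this filter was 2, and also 2 with quantile scaling. Triggers and regulators called lower numbered 2 with scaling to equal library totals, an alternative chosen after seeing the data. Without single libraries this count was 2 to 5, other sensors called lower 0 to 1, NOD signalling genes called lower 1 to 2 and effectors called lower 1 to 2. The causes were not tested. Without the filter on low values Nlrc4 had a log2 fold change of 1.59 (limma adjusted p = 0.0189), and 6 members were higher. Over all genes, 2001 to 2586 were higher and 1961 to 2618 lower across the alternatives.

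With a replicate block the calls were 2345 higher and 2316 lower, and 5 members were higher. Same-numbered libraries did not deviate together (correlations -0.0276 to -0.0077), so the numbers were not taken as pairs. The edgeR and DESeq2 alternatives were not run. In DMSO replicates 2 and 3 the smallest value was close to 1 (0.991 and 0.995), so the values were not accepted as recovered reads. Numbers of reads given above assume that the smallest value of a library is 1 read. Depth limits Nlrc4, Il1b and Il18, with at most 8.28 in any library.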
